A study of Mus musculus with 1037 samples.

Results

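Cd34, Lgr5, Lgr6, Lrig1, Plet1 and Cd200 are 6 genes whose proteins sit on the cell surface and are used to tell the stem cells of one region of the mouse hair follicle from those of another. They were taken by name, as the entries of the count table whose Ensembl identifiers carry these symbols, out of 51654 identifiers with a symbol, and all 6 had counts. They were followed in hair follicle epithelial cells of wild type mice, sorted from skin and read one at a time by Smart-seq2, a full-length single-cell RNA method. At AnaVI, late in the growth phase (postnatal day 15), the cells labelled LOS came from the lower outer root sheath, and those labelled MOS and UOS both carried the region upper-middle outer root sheath. At CatVI (day 17) and CatVII (day 18), in regression, the region was the upper outer root sheath. The CatVI cells were on plates whose titles read PhagoHFSC alive for P17f_pl1 and P17f_pl2, NonPhagoHFSC alive for P17f_pl3 and P17f_pl4, PhagoHFSC apop for P17f_pl5 and NonPhagoHFSC apop for P17f_pl6, and the CatVII cells were titled OSalive and OSapop. Alive cells were negative for annexin V. Each stage was a pool of 3 to 6 animals, so the cells of a group are not replicates of a stage and no p-value was computed. Stage, sort gate and plate cannot be told apart.

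The hair follicle keeps several stem and progenitor pools along its length, and each of these proteins is known for marking part of it. CD34 is a sialomucin of the bulge stem cells. LGR5 and LGR6 are receptors for R-spondins, secreted proteins that raise the response of a cell to WNT. LGR5 is known from the lower bulge and hair germ, and LGR6 from the isthmus above the bulge. LRIG1 is a membrane protein that dampens signals of the ERBB receptors and marks the junctional zone, PLET1 is a surface protein of the isthmus, and CD200 is a ligand that restrains myeloid cells and is known from the bulge and germ. In the methods, cells positive for SCA1 or for lineage markers were set aside and the rest gated on CD34 and integrin α6, with the upper and lower follicle separated mechanically beforehand. The level of Cd34 is thus not independent of how the cells were taken, and the labels do not say which gate each title stands for.

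On GRCm39, Cd34 (ENSMUSG00000016494.9) is at chr1:194621029-194647172 on the plus strand and Lgr6 (ENSMUSG00000042793.13) at chr1:134911039-135033100 on the minus strand. Lgr5 (ENSMUSG00000020140.15) is at chr10:115286216-115423685 and Lrig1 (ENSMUSG00000030029.14) at chr6:94581510-94677242, both on the minus strand. Plet1 (ENSMUSG00000032068.14) is at chr9:50405817-50420299 on the plus strand and Cd200 (ENSMUSG00000022661.14) at chr16:45202470-45229594 on the minus strand. All are protein-coding genes. Other annotated genes overlap each of them except Cd200, by whole gene span with introns included. The library method does not mark strand, so reads of a shared stretch could not be told apart by strand. Whether exons overlap was not examined. In the passing cells the overlapping Gm16897 had 314 counts at Cd34, A930009A15Rik 601 at Lgr5, Gm10535 18 at Lgr6 and Slc25a26 447 at Lrig1, and Plet1os had 0 at Plet1.

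The 250 bases before the annotated start are shown for Cd34 and Lgr6, which were seldom found in the same LOS and MOS cells. They are also shown for Lrig1, detected in the largest share of MOS and UOS cells, and for Plet1, with the lowest level per length in 6 of 9 groups. They are RefSeq promoters of GRCm38.p6, read 5′ to 3′ on the strand of the gene. Capitals mark every match, on either strand, to 5 motifs. These are the TATA element TATAAA, the CAAT-box motif CCAAT, the GC element GGGCGG, the LEF/TCF element CTTTGA and the NFAT core GGAAA.
Cd34 (chr1:194938571-194938820, plus strand): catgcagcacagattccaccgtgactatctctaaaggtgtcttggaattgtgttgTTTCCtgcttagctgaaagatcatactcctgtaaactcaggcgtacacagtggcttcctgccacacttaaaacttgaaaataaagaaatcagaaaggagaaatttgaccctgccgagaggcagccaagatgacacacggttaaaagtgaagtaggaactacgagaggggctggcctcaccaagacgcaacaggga
Lgr6 (chr1:135105277-135105526, minus strand): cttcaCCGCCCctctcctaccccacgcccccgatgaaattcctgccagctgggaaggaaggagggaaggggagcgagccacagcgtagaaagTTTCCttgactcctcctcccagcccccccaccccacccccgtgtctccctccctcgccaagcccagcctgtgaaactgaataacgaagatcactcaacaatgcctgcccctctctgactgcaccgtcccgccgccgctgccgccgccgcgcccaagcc
Lrig1 (chr6:94700146-94700395, minus strand): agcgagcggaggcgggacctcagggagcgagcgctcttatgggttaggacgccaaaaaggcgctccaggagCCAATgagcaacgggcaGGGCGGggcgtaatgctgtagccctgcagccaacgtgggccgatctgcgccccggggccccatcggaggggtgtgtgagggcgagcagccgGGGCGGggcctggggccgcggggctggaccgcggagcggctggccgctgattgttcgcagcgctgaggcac
Plet1 (chr9:50494275-50494524, plus strand): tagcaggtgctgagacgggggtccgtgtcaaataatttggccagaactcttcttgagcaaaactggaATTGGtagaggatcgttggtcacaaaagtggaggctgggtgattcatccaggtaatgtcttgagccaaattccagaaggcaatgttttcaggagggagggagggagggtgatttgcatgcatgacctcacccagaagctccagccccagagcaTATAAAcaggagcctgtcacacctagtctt
The windows differ in base composition. That of Lrig1 held 26 CpG pairs at 71.6% GC with 2 GC elements, and that of Lgr6 held 16 at 65.2% GC with 1. The Cd34 window held 6 CpG pairs at 46.4% GC, and that of Plet1 held 3 at 50% GC and the only TATA element among them. Across 32851 RefSeq windows of this length the median was 6 CpG pairs and 52.4% GC, and a TATA element was found in 12.4%, the CAAT-box motif in 33.8%, a GC element in 32.7%, a LEF/TCF element in 13.8% and an NFAT core in 55.6%. These windows hold no LEF/TCF element. The Cd200 window had 42.4% GC and 1 GC element, and Lgr5 had no entry.

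Of 1036 cells with counts, 463 in 9 groups had at least 2000 detected genes and were used: 39 LOS, 38 MOS and 92 OSapop cells, 57 CatVI cells (19, 9, 15 and 14 on P17f_pl1, P17f_pl2, P17f_pl5 and P17f_pl6), and UOS and OSalive with 24.2% and 27% of the 463. No cell of P17f_pl3 or P17f_pl4 passed. The passing share was 21.6%, 12.3%, 17.6% and 20.3% on P17f_pl1, P17f_pl2, P17f_pl5 and P17f_pl6. In the AnaVI and CatVII groups it ran from 41.9% in LOS to 83.6% in UOS. The part of this selection in the CatVI values was not tested. Levels are counts summed over cells per 1000000 counts of annotated genes (CPM), because a single identifier without a symbol held 56.3% to 66.5% of the counts of a group. The median cell had between 24765 annotated counts (P17f_pl6) and 415779 (OSalive), so shares of cells with a count are also given as calculated for cells thinned to 20000 annotated counts, shallower cells left out. Intervals are exact 95% intervals and cover counting error only. The keratin genes Krt5 and Krt14 marked the cells as epithelial, and Krt5 had a count in every MOS, UOS, OSalive and OSapop cell, in 38 of 39 LOS cells and in 52 of 57 CatVI cells, with 6 of 9 on P17f_pl2. As a background, each of 6 genes not known from skin had a count in at most 2 cells of a group. In 9 LOS, 5 UOS, 5 CatVI, 2 OSalive and 1 OSapop cells, and in 0 MOS cells, the summed counts of immune, fibroblast, melanocyte and endothelial markers were above those of the 2 keratins. They are called other-leaning cells from here on.

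Cd34 was high in UOS, OSalive and OSapop, lower in LOS and MOS, and nearly undetected on the CatVI plates. Its level was 321 (313 to 330.1) CPM in UOS, 575 (568.4 to 581) in OSalive and 481 (469.9 to 492) in OSapop. In LOS it was 98.8 (87.3 to 111.4) CPM and in MOS 98.4 (84.7 to 113.7), which counting error does not separate, although 1 MOS cell held 36.4% of the counts and without it MOS had 65 CPM. The lowest cell was at 0 in every group, for Cd34 and for the other 5 genes. The median and the highest cell had 260.7 and 1631 CPM in UOS, 378 and 4585 in OSalive, 203.8 and 3434 in OSapop, 0 and 1081 in LOS, and 35.5 and 982 in MOS. Single cells of these 5 groups thus overlapped. Some groups differed in how many cells had no Cd34 count, and some in the level among cells with one. Among cells with a count the median was 139.8 CPM in LOS, 144.6 in MOS, 284.2 in UOS, 875 in OSalive and 445.4 in OSapop.

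On the CatVI plates 4 of 57 cells had a Cd34 count, 1 on each plate. They held 8 counts on P17f_pl1, 22 on P17f_pl2, 8 on P17f_pl5 and 4 on P17f_pl6, for plate levels of 5.73, 33.8, 7.05 and 9.06 CPM. Each plate level therefore rested on 1 cell. The cell of P17f_pl2 was other-leaning and had 0 counts of Lgr5 and of Krt15, a keratin of the bulge. Cells with a Cd34 count made 7.02% of CatVI, 48.7% of LOS, 52.6% of MOS, 94.6% of UOS, 68% of OSalive and 68.5% of OSapop cells. At 20000 counts per cell the shares were 7.28%, 51.4%, 51.2%, 86.1%, 64% and 67.9% in the same order, so the low share at CatVI was also found at matched depth. The part of the CD34 gate in these shares was not tested. A low sum can come from fewer cells with the RNA or from less RNA per cell; in OSalive, 40 cells had no Cd34 count and the median of the 85 others was 875 CPM.

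**Figure D1:**
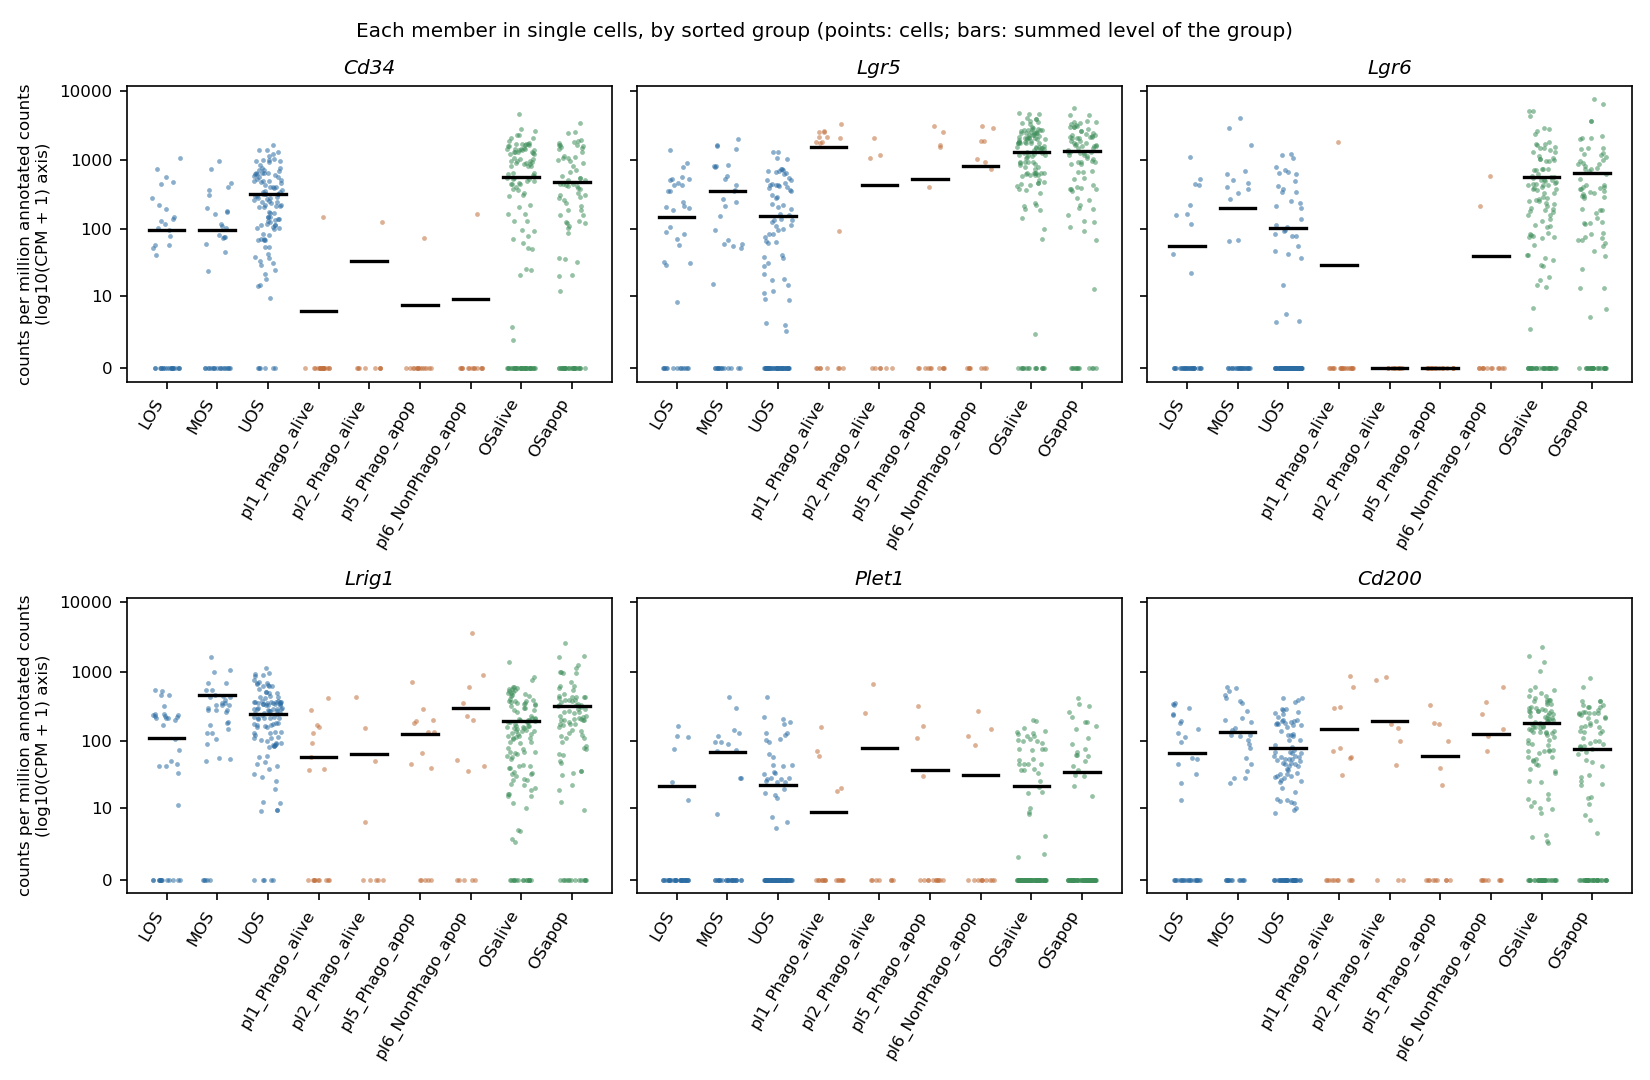
Each point is 1 cell, in counts per 1000000 annotated counts on a log10(CPM + 1) axis, each black bar is the summed level of the group, and colours mark the stage. Cd34 had a count in 4 of 57 CatVI cells, whereas Lgr5 in those cells was either 0 or at least 95 CPM.

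Lgr5 was highest in the CatVII cells and on P17f_pl1. Its level was 1321 (1311 to 1330) CPM in OSalive, 1350 (1332 to 1369) in OSapop and 1529 (1464 to 1595) on P17f_pl1. On P17f_pl6, P17f_pl5 and P17f_pl2 it was 822, 539 and 432 CPM. The AnaVI groups were lower, with 353 (326 to 381) in MOS, 157.6 (151.7 to 163.7) in UOS and 150.997 (136.7 to 166.4) in LOS, and the last 2 overlapped. The order of the CatVI plates rests on 9 to 19 cells each: on P17f_pl2 a single cell held 65.1% of the counts, and without it the level was 198.4 CPM.

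CatVI and UOS cells differed more in the level of Lgr5 within cells than in how many cells had it. Of the 57 CatVI cells 26 had a count, each of at least 6, and their median was 1874 CPM and the highest 3329. In UOS 57.1% of cells had a count, against 45.6% in CatVI, with a median of 179.4 CPM and a highest value of 1322. At 20000 counts per cell the share with Lgr5 was 46.9% in CatVI, 44.3% in UOS, 58.8% in LOS, 60.2% in MOS, 86.8% in OSalive and 84.9% in OSapop. Over all cells, the median was 1267 CPM in OSalive and 1171 in OSapop, and the highest cells had 4696 and 5602.

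Lgr6, the paralogue of Lgr5, was abundant in the CatVII cells, lower at AnaVI and found in 3 of 57 CatVI cells. Its level was 562 (556 to 568.5) CPM in OSalive, 651 (638 to 663) in OSapop, 205.96 (185.9 to 227.6) in MOS, 105.1 (100.3 to 110.1) in UOS and 55.9 (47.3 to 65.5) in LOS. Few cells carried much of these sums. The cell with the most counts held 59.6% in LOS, 36.4% in OSapop, 28.6% in MOS and 28.4% in UOS, and without it the levels were 23.3, 429.8, 166.3 and 78.2 CPM. The median cell had 193.8 CPM in OSalive, 157.9 in OSapop and 0 in LOS, MOS and UOS, and the highest had 5122, 7474, 1121, 4016 and 1210. The 3 CatVI cells were 1 on P17f_pl1 and 2 on P17f_pl6. Taking 3 cells as the limit that a count of 0 allows, P17f_pl2 had 0 of 9 cells, which allows a share of up to 33.3%, and P17f_pl5 had 0 of 15, which allows 20%. At 20000 counts per cell the share was 3.92% in CatVI, 66.3% in OSalive, 64.5% in OSapop, 27.3% in MOS, 25.8% in UOS and 23.9% in LOS. The 2 paralogues thus parted at CatVI, where Lgr5 was in 26 cells and Lgr6 in 3.

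Lrig1 had a count in most cells of every AnaVI and CatVII group. The share was 95.5% in UOS, 33 of 38 cells in MOS, 25 of 39 in LOS, 87.2% in OSalive, 78 of 92 in OSapop and 32 of 57 in CatVI. Thinned to 20000 counts it was 91.7% in MOS, 86% in UOS, 79.3% in OSapop, 70.4% in OSalive, 57.5% in LOS and 46.5% in CatVI, so MOS and UOS changed places at matched depth. Its level was 466.5 (436 to 498) CPM in MOS, 322 (313 to 331) in OSapop, 242.8 (235.5 to 250.3) in UOS, 193.4 (189.8 to 197.1) in OSalive and 107.7 (95.7 to 120.8) in LOS. One cell held 40.5% of the counts in MOS and another 40.9% in LOS, and without them the levels were 314 and 70.3 CPM. The median MOS and UOS cells, at 280.6 and 246.9 CPM, were closer than the sums. On P17f_pl1, P17f_pl2, P17f_pl5 and P17f_pl6 the levels were 58, 63, 123.3 and 299 CPM, and without the highest cell P17f_pl2 had 20.6 and P17f_pl6 156.1.

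Plet1 was low throughout. Its level was 69.5 (58.1 to 82.6) CPM in MOS, 34.6 (31.7 to 37.6) in OSapop, 32.8 (27.2 to 39.3) in CatVI, 22.2 (20 to 24.5) in UOS, 21.8 (16.6 to 28.2) in LOS and 21.8 (20.6 to 23.1) in OSalive. The last 3 were not separated by counting error. The median cell was at 0 in each of these groups, and the highest had 427, 414, 671, 430.4, 164.2 and 196.995 CPM. Counts were found in 13 of 38 MOS, 6 of 39 LOS, 15 of 57 CatVI and 23 of 92 OSapop cells, 29.5% of UOS and 30.4% of OSalive cells. One cell held 49.2% of the MOS counts and another 38.7% of the CatVI counts, and without them the levels were 39.9 and 20.5 CPM.

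Cd200 was detected in every group, in 40% to 74.4% of cells. Its level was 178.9 (175.4 to 182.5) CPM in OSalive, 133.2 (117.2 to 150.8) in MOS, 125.3 (114.1 to 137.4) in CatVI, 79.2 (75 to 83.5) in UOS, 76.9 (72.6 to 81.4) in OSapop and 65.9 (56.6 to 76.3) in LOS. MOS and CatVI overlapped, as did UOS and OSapop. The CatVI plates differed, with 148.3, 190.7, 59 and 126.9 CPM on P17f_pl1, P17f_pl2, P17f_pl5 and P17f_pl6. The cell with the most counts held 55.6% on P17f_pl1 and 46% on P17f_pl2. It held 25.3% in CatVI and 41.6% in LOS, and without it these 2 groups had 97.2 and 53.9 CPM. The median cell had 86.5 CPM in OSalive, 66.9 in MOS, 0 in CatVI, 32.3 in UOS, 46.1 in OSapop and 0 in LOS, and the highest had 2226, 594, 860.0, 421, 809.5 and 357. The 9 other-leaning LOS cells held 43.8% of the Cd200 counts of that group and 50.9% of its Cd34 counts, but 10% of its Lgr5 counts and 10.3% of its Lrig1 counts.

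Set side by side per kilobase of transcript, the genes led in different sorts. In UOS Cd34 led with 130.2 CPM per kb, ahead of Lrig1 with 47.8 and Lgr5 with 33.4. In MOS Lrig1 led with 91.8, before Lgr5 with 74.8, and with the cell with the most counts of each gene left out the order turned, to 61.8 and 67.8. In OSalive Lgr5 had 280.2 and Cd34 232.9, and in OSapop 286.4 and 194.8. Lgr5 led on all 4 CatVI plates, with 324, 91.7, 114.4 and 174.5 CPM per kb on P17f_pl1, P17f_pl2, P17f_pl5 and P17f_pl6. On P17f_pl2 that lead rested on 1 cell, and with the cell with the most counts of each gene left out Lgr5 had 42.1 and Cd200 45.8. In LOS the values ran from 40 for Cd34 to 4.19 for Plet1.

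**Figure D2:**
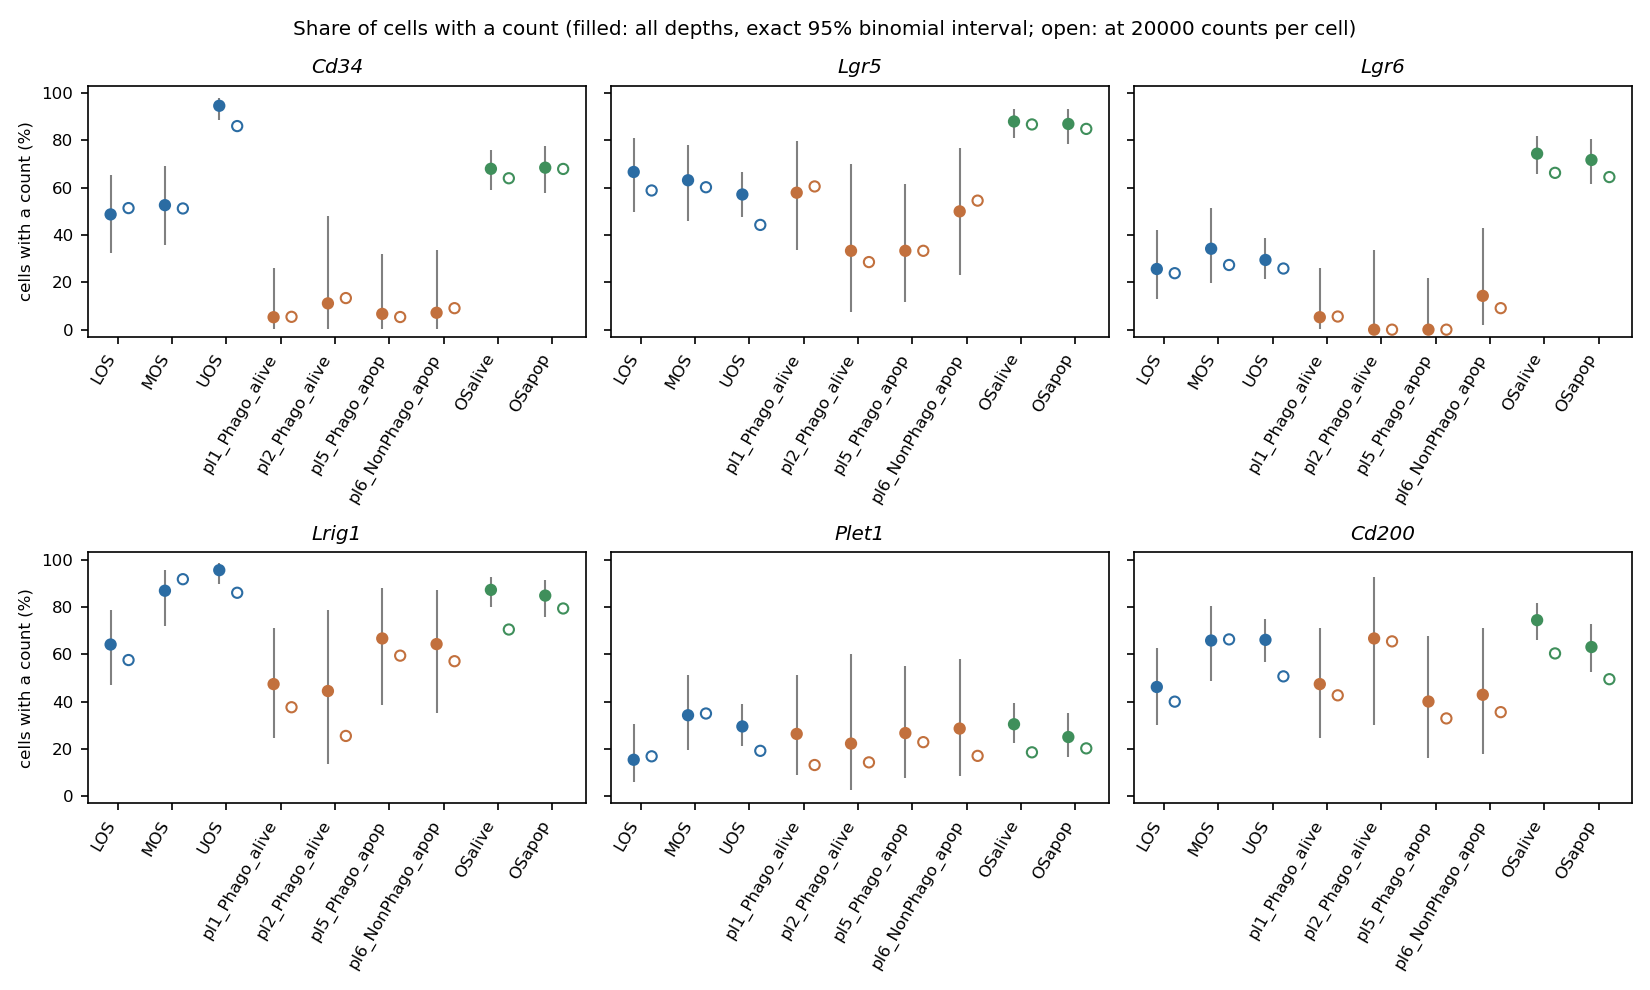
Filled points are the percentage of cells with a count, with the exact 95% binomial interval, and open points are the percentage calculated for 20000 annotated counts per cell. Cd34 was found in 1 cell of each CatVI plate, and the open points of those plates lay below those of LOS, MOS, UOS, OSalive and OSapop.

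The sorts were then compared by log2 ratios of summed CPM among all genes with 100 or more counts in the pair of groups, which held all 6 members each time. UOS served as reference in 4 of the 5 comparisons, which thus share its cells. LOS had less Cd34 than UOS, with a log2 ratio of -1.70 (-1.88 to -1.52), and less Lrig1, with -1.17 (-1.35 to -1.0). These 2 of 6 members were 2-fold or more lower and 0 of 6 were higher, beside 14.5% lower and 14% higher of 11418 genes. Lgr6 was at -0.91 (-1.16 to -0.67), or -1.75 without the cell with the most counts of each group and -0.21 as a mean over cells. Lgr5 was at -0.06, Plet1 at -0.02 and Cd200 at -0.27, and as means over cells they were at 0.37, -0.79 and 0.02. Markers of other cell types moved with this comparison: fibroblast markers summed to 4640 CPM in LOS and 1114 in UOS, melanocyte markers to 588 and 32.3, endothelial markers to 250.9 and 30.1, and immune markers to 94.7 and 6.25. Without the other-leaning cells Cd34 was at -2.01, Lrig1 at -0.61 and Lgr5 at 0.56, so that Lrig1 was no longer past 2-fold and Lgr5 changed sign.

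MOS against UOS set Cd34 apart from the other 5 genes. Cd34 was lower in MOS, at -1.71 (-1.93 to -1.50). Plet1 was at 1.65 (1.35 to 1.94), Lgr5 at 1.16 (1.04 to 1.28), Lgr6 at 0.97 (0.81 to 1.13), Lrig1 at 0.94 (0.84 to 1.05) and Cd200 at 0.75 (0.55 to 0.95), all higher in MOS. Past 2-fold were 2 of 6 upward, beside 9.38% of 11059 genes, and 1 of 6 downward, beside 18.9%. With counts of all genes as denominator Lgr5 was at 0.97, and 724 genes were higher and 2556 lower in place of 1037 and 2092. Fibroblast markers summed to 64.7 CPM in MOS against 1114 in UOS, and without the other-leaning UOS cells Cd34 was at -1.82 and Lgr5 at 1.10. As a mean over cells Plet1 was at 0.90, Lrig1 at 0.25 and Lgr6 at 1.75.

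Between CatVI and UOS the 6 genes went different ways. Cd34 was 27.7-fold lower in CatVI, at -4.79 (-5.27 to -4.36), and Lgr5 was 5.94-fold higher, at 2.57 (2.50 to 2.64). Lgr6 was at -2.69 (-3.09 to -2.32) and Lrig1 at -1.16 (-1.31 to -1.01), both lower. Cd200 was at 0.66 (0.51 to 0.82) and Plet1 at 0.57 (0.26 to 0.87). Thus 3 of 6 were 2-fold or more lower, beside 25.9% of 11439 genes, and 1 of 6 was higher, beside 12.2%. With median-of-ratios scaling 1873 genes were higher and 2414 lower, in place of 1390 and 2960. With each plate left out in turn Cd34 stayed between -5.58, without P17f_pl2, and -4.40, without P17f_pl1, and Lgr5 between 1.84, without P17f_pl1, and 2.82, without P17f_pl5. Without the other-leaning cells Cd34 was at -5.82 and Lgr5 at 2.66. Lgr6, which rests on 3 CatVI cells, was at -3.70 without P17f_pl1 and -1.06 as a mean over cells, and the 47 CatVI cells with at least 3000 detected genes held 0 Lgr6 counts. Lrig1 was past 2-fold in 7 of 10 settings. It was at -0.69 as a mean over cells and -0.79 without P17f_pl1, and median-of-ratios scaling also took it below 2-fold. Plet1 was at 0.04 without P17f_pl2 and 1.11 without P17f_pl1. Markers of other cell types also differed: fibroblast markers summed to 62.7 CPM in CatVI and 1114 in UOS, endothelial markers to 78.7 and 30.1, melanocyte markers to 73.7 and 32.3, and immune markers to 1.93 and 6.25. The epithelial keratins did not show the low level of Cd34: Krt5 was 5125 CPM in CatVI and 5132 in UOS, and Krt14 was 6467 and 3647. Genes of other follicle layers differed too. Of 2 inner layer genes, Krt6a was at 2.25 (2.18 to 2.31) and Krt75 at -0.15 (-0.33 to 0.02). On P17f_pl5 they summed to 2329 CPM, with counts in 13 of 15 cells, against 335 in UOS. Of 4 upper follicle genes compared, Krt79 was at 3.03, Cst6 at 0.65, Krt17 at -0.57 and Ly6d at -1.07. The part of these layers in the low Cd34 was not tested.

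OSalive had more Lgr5, Lgr6 and Cd200 than UOS. Lgr5 was 8.38-fold higher, at 3.07 (3.01 to 3.12), Lgr6 was at 2.42 (2.35 to 2.49) and Cd200 at 1.18 (1.09 to 1.26). Cd34 was at 0.84 (0.80 to 0.88), Lrig1 at -0.33 (-0.38 to -0.28) and Plet1 at -0.03 (-0.19 to 0.14). Thus 3 of 6 were 2-fold or more higher, beside 16.8% of 14078 genes, and 0 of 6 lower, beside 18.7%. With counts of all genes as denominator Cd200 was at 0.80, and 1615 genes were higher and 3751 lower in place of 2368 and 2634. For Cd34 the sum and the share of cells went opposite ways: fewer OSalive than UOS cells had a count, but those that had one were at a median of 875 against 284.2 CPM. Krt1 and Krt10, keratins of the epidermis between follicles, were 2-fold or more higher in UOS than in LOS, MOS, CatVI and OSalive, and summed to 162.6 CPM in 28 UOS cells and to 25.8 CPM in 17 OSalive cells. Their part in these comparisons was not tested.

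OSapop and OSalive differed past 2-fold in Cd200 alone, which was lower in OSapop at -1.22 (-1.31 to -1.13), or -0.69 as a mean over cells. This was 1 of 6 members, beside 13% lower of 13806 genes and, with 0 of 6, beside 8.60% higher. Lrig1 was at 0.73 (0.68 to 0.78), Plet1 at 0.67 (0.52 to 0.81), Cd34 at -0.26 (-0.29 to -0.22), Lgr6 at 0.21 (0.18 to 0.24) and Lgr5 at 0.03 (0.01 to 0.05). Without the cell with the most counts of each group Lgr6 was at -0.22. The share of cells with Cd34 was 68% in OSalive and 68.5% in OSapop.

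**Figure D3:**
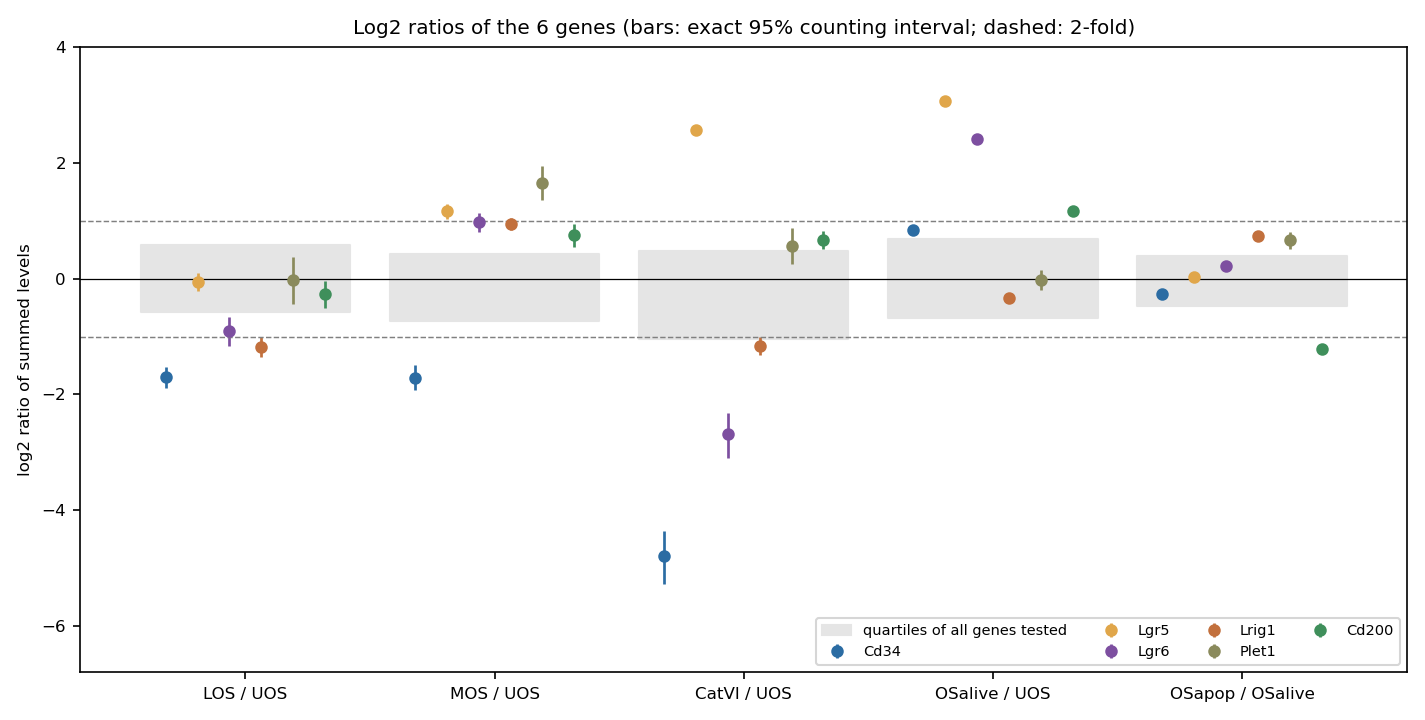
Points are log2 ratios of summed CPM for the 6 genes in 5 comparisons, with exact 95% counting intervals, set beside the spread of all genes tested. Cd34 was lower than in UOS in LOS, MOS and CatVI, while Lgr5 was 5.94-fold higher in CatVI and 8.38-fold higher in OSalive.

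Single cells with both Cd34 and Lgr5 were common in UOS and at CatVII. The share was 52.7% (43% to 62.2%) in UOS, 64.8% (55.8% to 73.1%) in OSalive and 64.1% (53.5% to 73.9%) in OSapop. In LOS 17 of 39 cells had both, 43.6% (27.8% to 60.4%), in MOS 14 of 38, 36.8% (21.8% to 54%), and at CatVI 3 of 57, 5.26% (1.10% to 14.6%). The product of the single shares was 54.1% in UOS, 59.8% in OSalive, 59.5% in OSapop, 32.5% in LOS and 33.2% in MOS. At 20000 counts per cell both were calculated for 36.4% of UOS, 61.2% of OSalive, 62.6% of OSapop, 35% of LOS and 35.8% of MOS cells, with products of 38.1%, 55.5%, 57.7%, 30.2% and 30.8%. The share with both was thus below the product in UOS and above it in LOS, MOS, OSalive and OSapop. In each of them the product of the unthinned shares lay within the exact interval of the share with both. That interval cannot tell whether the genes went together, because the product comes from the shares of the same cells. Cells with and without Cd34 are set apart next.

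Lgr5 was found in 95.3% (88.4% to 98.7%) of OSalive cells with Cd34 and 72.5% (56.1% to 85.4%) of those without, at median depths of 415779 and 418680 annotated counts. Its level there was 1326 and 1308 CPM. In OSapop the shares were 93.7% and 72.4% and the levels 1379 and 1290 CPM. At CatVII, then, the share of cells with Lgr5 differed with Cd34 while its summed level was nearly the same. In LOS the shares were 89.5% and 45%, at depths of 46319 and 14202. In UOS only 6 cells lacked Cd34, and 5 of them had Lgr5.

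Cd34 and Lrig1 were found together in nearly all UOS cells, 92% (85.3% to 96.3%). In OSalive the share was 60.8% (51.7% to 69.4%), in OSapop 59.8% (49% to 69.9%), in MOS 42.1% (26.3% to 59.2%), in LOS 38.5% (23.4% to 55.4%) and at CatVI 3 of 57 cells. The products of the single shares were 90.4%, 59.3%, 58.1%, 45.7% and 31.2% in the first 5. The summed level of Lrig1 was lower in cells with Cd34 than in those without in LOS, MOS, OSalive and OSapop, and higher in UOS. It was 252.3 and 63.6 CPM in UOS, 85.3 and 141.6 in LOS, 316 and 653 in MOS, 178.6 and 228.03 in OSalive and 282.8 and 402 in OSapop. With the highest cell of each side left out, it was 284.99 and 311 CPM in MOS and 72.4 and 40.4 in LOS, where the order turned.

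Cd34, Lgr5 and Lrig1 were all found in 52.7% of UOS, 57.6% of OSalive and 55.4% of OSapop cells, in 14 LOS and 11 MOS cells and in 1 cell each of P17f_pl1 and P17f_pl6. Every UOS cell with Cd34 and Lgr5 also had Lrig1. At least 4 of the 6 genes were found in 58% of UOS, 77.6% of OSalive, 69.6% of OSapop, 50% of MOS and 33.3% of LOS cells, and all 6 in 7 UOS, 11 OSalive, 4 OSapop and 1 MOS cells.

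**Figure D4:**
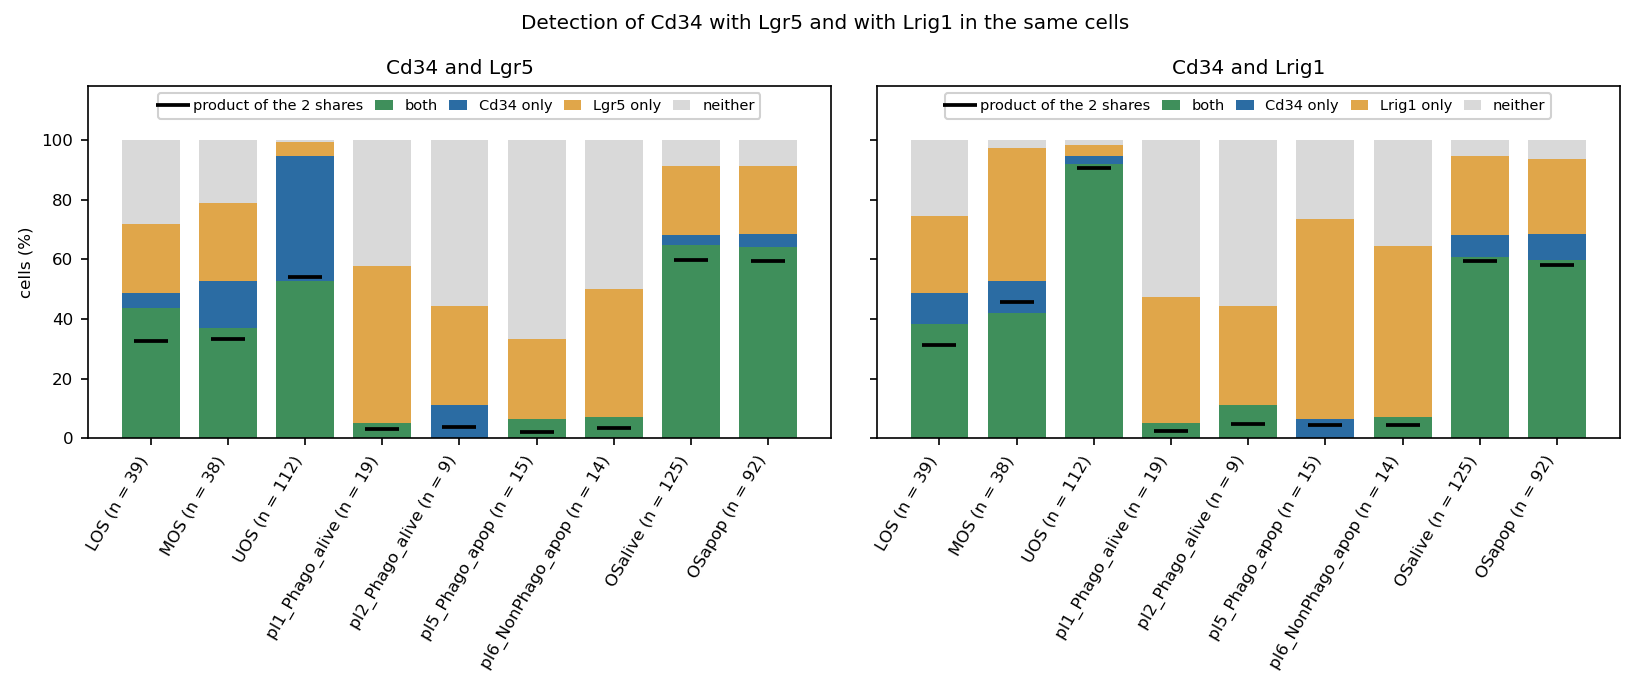
Stacked bars give the percentage of cells in each group with counts of both genes, of one or of neither, and black ticks give the product of the single shares. In UOS 92% of cells had Cd34 with Lrig1 and 52.7% had Cd34 with Lgr5, and on the CatVI plates each pair was found in 3 of 57 cells.

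Cd34 and Lgr6, a pair chosen after its values were seen, were seldom found in the same LOS and MOS cells. In MOS, Lgr6 was in 2 of 20 cells with Cd34 and 11 of 18 without, and in LOS in 2 of 19 and 8 of 20. In OSalive it was in 68.2% of cells with Cd34 and 87.5% of those without, and in OSapop in 66.7% and 82.8%. The median depth of cells with and without Cd34 was 46319 and 14202 annotated counts in LOS and 34286 and 27939 in MOS. The summed Lgr6 level with and without Cd34 was 8.72 and 449 CPM in MOS, 4.30 and 134.2 in LOS, 75.5 and 662 in UOS, 360.4 and 1032 in OSalive and 234.3 and 1517 in OSapop. With the highest cell of each side left out, the levels without Cd34 were 429, 54.4, 264.2, 843 and 889.6 CPM, all still above those with Cd34. Spearman's rho of the 2 values over the cells of a group was -0.56 in MOS, -0.33 in LOS, -0.12 in UOS, -0.29 in OSalive and -0.42 in OSapop, over cells that share plate and stage.

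**Figure D5:**
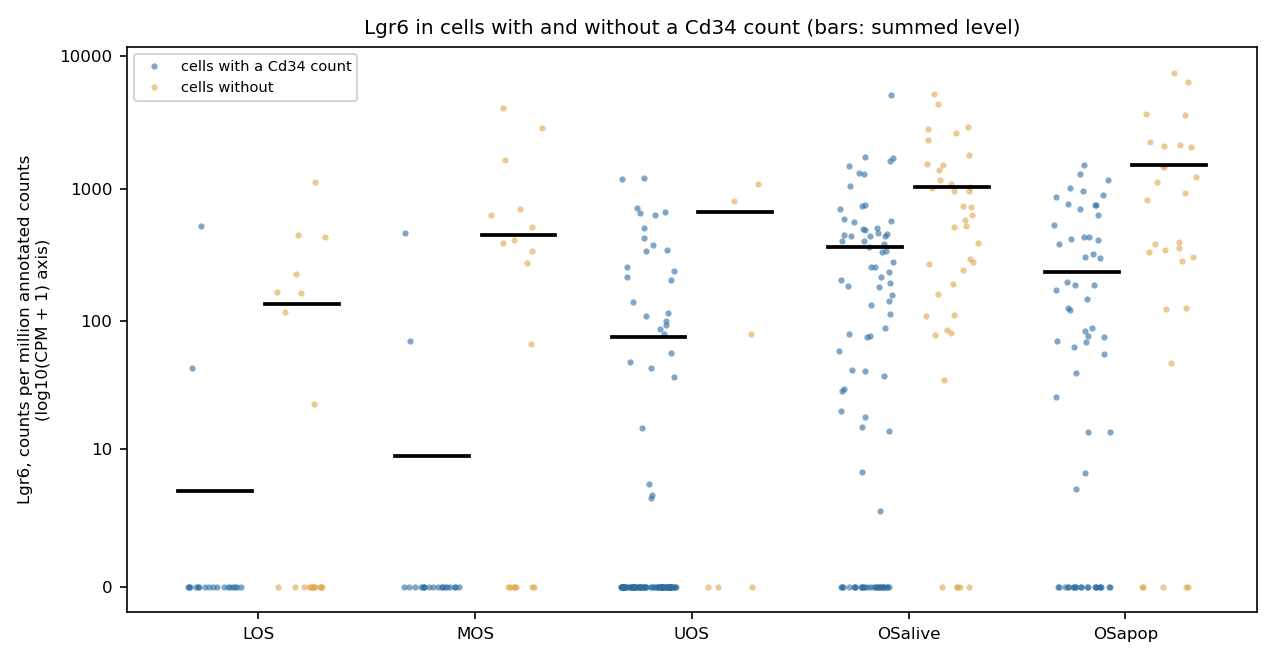
Points are single cells, split by whether they had a Cd34 count, with Lgr6 in counts per 1000000 annotated counts on a log10(CPM + 1) axis, and black bars are summed levels. In all 5 groups the summed Lgr6 level was higher in cells without Cd34, for instance 449 against 8.72 CPM in MOS. In UOS only 6 cells lacked Cd34.

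Genes that act with the members were followed as lists. Of 10 genes of the R-spondin and LGR pathway 6 had enough counts to compare: the receptor gene Lgr4, the ligase genes Znrf3 and Rnf43, whose products remove WNT receptors, the co-receptor genes Lrp5 and Lrp6, and the WNT target Axin2. Between CatVI and UOS, where Lgr5 was higher, 0 of these 6 passed 2-fold in either direction, beside 12.2% higher and 25.9% lower of all genes, with a median of 0.18 against -0.22 over all genes. In LOS 2 of 6 were higher than in UOS, Znrf3 at 1.71 and Axin2 at 1.11, beside 14% of all genes. In OSalive 2 of 6 were higher, Axin2 at 1.49 and Rnf43 at 1.38, beside 16.8% of all genes. In MOS 1 of 6 was lower, Axin2 at -1.49, beside 18.9%. Lgr4 stayed within 2-fold in all 5 comparisons. The R-spondin genes Rspo1 to Rspo4 had counts in at most 5 cells of a group.

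Of Lrig2 and Lrig3, paralogues of Lrig1, and Egfr, Erbb2 and Erbb3, genes of the receptors it acts on, 0 of 5 passed 2-fold in any of the 5 comparisons. Egfr had a count in every MOS, UOS and OSapop cell. The CD200 receptor genes Cd200r1 to Cd200r4 had counts in at most 2 cells of a group. Among genes related to Cd34, Podxl2 was at -1.20 in LOS and -1.15 in MOS against UOS, and Podxl was 176.2 CPM in LOS from 1 cell. Of the genes of the sort antibodies, Itga6, which encodes integrin α6, was at -1.08 in LOS and -1.18 in CatVI. Ly6a, of SCA1, and Pecam1, of CD31, whose products the sort set aside, had counts in 6 and 5 LOS cells.

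Some other bulge genes were also lower at CatVI, if less so than Cd34. Of 7 bulge genes 4 were 2-fold or more lower than in UOS and 0 higher, beside 25.9% lower and 12.2% higher of all genes, with Postn at -2.57, Krt15 at -2.41, Lhx2 at -1.92 and Col17a1 at -1.72, and a median of -1.72 against -0.22 over all genes. Within 2-fold were Sox9 at -0.64, Tcf7l1 at -0.18 (-0.42 to 0.05) and Nfatc1, which was higher, at 0.26 (0.10 to 0.41). Krt15, although lower, was found in 37 of 57 CatVI cells, against 4 for Cd34. In LOS 6 of 7 were lower, beside 14.5% of all genes, and 0 higher. In MOS, Krt15 was at -1.31 and Nfatc1, a regulator of stem cell quiescence, at 1.76. Of 4 upper follicle genes compared, 3 were higher in MOS than in UOS, as was Plet1: Krt79 at 1.84, with counts in 4 of 38 cells, Ly6d at 1.83 and Krt17 at 1.10, beside 9.38% of all genes. Of 5 genes of the lower sheath and germ compared, 4 were higher in LOS, among them the proliferation genes Mki67 at 2.44 and Top2a at 2.07, beside 14% of all genes.

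The genes most like each member over the 9 groups were sought among 9439 genes by Pearson's r of log2(CPM + 1), over 9 values that differ in sort and depth together. For Cd34 they were Pcdh20 (0.99), Ccn2 (0.98), Tle5 (0.98), Ccn1 (0.97), Acsf2 (0.97). For Lgr6 they were Trp73 (0.98), Crtap (0.98), Tmem184b (0.98), Rab1b (0.97), Bcam (0.97). Values were lower for Lgr5, with Prickle3 (0.96), Adamts17 (0.96), Sdc3 (0.94), Slc44a2 (0.93), Rere (0.92), and for Lrig1, with Ifi30 (0.95), Klf10 (0.95), Edem3 (0.93), Paxx (0.93), Cdk7 (0.92). Plet1 had Ifngr2 (0.94), Nebl (0.91), Ap1m1 (0.88), Hspa4l (0.88), Xbp1 (0.88), and Cd200 had Gm49544 (0.89), Ddx19b (0.88), Trio (0.87), Gm16499 (0.86), Fam120b (0.86). Among the 6 members, Cd34 and Lgr6 were the most alike over groups, with r = 0.72, although within the groups Lgr6 was higher in cells without Cd34. Cd34 and Lgr5 were at -0.15. Each CatVI plate enters these correlations as a value of its own. There each Cd34 level rests on 1 cell, and Lgr6 had 0 counts on P17f_pl2 and P17f_pl5.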

How the data were processed

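Sorted single cells were sequenced by Smart-seq2, after wells with several cells had been screened out by a qPCR of Gapdh. Following the methods and the submitters' processing notes, the authors aligned trimmed reads to mm39 with STAR (2.6), quantified them with Salmon (1.4.0) and compiled them in R (3.6.1) by tximport. They deposited estimated counts for 55335 identifiers and 92 spike-ins, without normalization. The annotation release is not given in the sources used here. A deposited table of cell labels was not used. Of 1037 samples, 1 had no counts and 1 carried labels of different stages and stayed out of every group.

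Estimated counts were rounded. Of the identifiers, 93.3% matched GENCODE, which gave symbols and lengths. Cells with fewer than 2000 detected genes were left out, which kept 39 LOS, 38 MOS, 112 UOS, 57 CatVI, 125 OSalive and 92 OSapop cells. Levels (CPM) had exact Poisson intervals, ratios exact binomial and shares Clopper-Pearson intervals. Without molecular identifiers, reads are not independent molecules. Named genes are the 6 members, the genes of lists, and the 5 genes with the highest Pearson r for each member. Members and lists were chosen with earlier results of these data known. Calculations used Python (3.11.15) and scipy (1.17.1). One alternative scaled the counts by TMM factors from edgeR (4.0.16). Ratios were tested on simulated sums without variation between cells, so that test does not cover sums carried by few cells. No caller of doublets was run. Among cells that shared a well label, 99 pairs were compared and 0 were identical. Of 106953 pairs among all passing cells 3 had r over 0.6, of which 1 joined a LOS and a UOS cell. One pair of OSapop cells was nearly alike (r = 0.93 over genes), and leaving out the shallower cell moved no member level by more than 0.299%.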

Additional observations from a re-analysis of the deposited data

Results flagged for a closer look

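On P17f_pl2, a plate of 9 passing cells, the highest cell stood apart from the other 8 for 3 genes: Cd34, with 128.5 CPM and the others at 0, Lrig1, with 423 CPM and the next at 150.7, and Plet1, with 671 CPM and the next at 251.1. Chance alone sets a value apart in this way in about 5% of groups, and cells at 0 make it more frequent. For Cd34 any count would stand apart, since the other 8 cells were at 0. On P17f_pl1, P17f_pl5 and P17f_pl6 Cd34 was also found in 1 cell only.

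The log2 ratio of apop to alive cells for Lgr5 had opposite signs at the 2 catagen stages. On the CatVI PhagoHFSC plates it was -1.13, with 539 CPM in apop and 1180 in alive cells. The alive level pools P17f_pl1 at 1529 and P17f_pl2 at 432 CPM, so the sign rests on P17f_pl1, and against P17f_pl2 alone the apop plate was higher. At CatVII the ratio was 0.0319, or -0.05 as a mean over cells. The difference between the stages was not tested, since each stage is a single pool.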

How the results depend on the processing

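Of the members' ratios of 2-fold or more, none changed sign under another scaling, another limit on detected genes, a mean over cells or the leaving out of a CatVI plate, and those that fell below 2-fold are given with their comparison. Of those within 2-fold, Lgr6 in LOS was at -1.05 with TMM scaling and Lrig1 in MOS at 1.04 with median-of-ratios scaling. Lgr6 in MOS was past 2-fold in 3 of 6 settings, with 1.75 as a mean over cells. Plet1 in CatVI was at 1.11 without P17f_pl1. Asking for 20 rather than 100 counts tests more genes and gave 2892 genes higher and 2491 lower in LOS, 1743 higher in MOS, 2926 higher in CatVI and 3916 higher in OSalive than in UOS, and 2116 higher and 3481 lower in OSapop than in OSalive. With 5 or more counts asked of each gene, cells with Cd34 and Lgr5 were 15.4% in LOS, 15.8% in MOS and 33% in UOS, and cells with Cd34 and Lrig1 were 15.4% in LOS, 23.7% in MOS, 75.9% in UOS and 43.5% in OSapop. At 20000 counts per cell Cd34 with Lgr5 was 36.4% in UOS, and Cd34 with Lrig1 was 75.7% in UOS and 45.8% in OSalive. Median-of-ratios scaling moved all ratios of CatVI to UOS by 0.21 and TMM scaling by 0.10. TMM scaling moved those of LOS by -0.13 and of OSalive by 0.11, and counts of all genes as denominator moved those of MOS by -0.20, of OSalive by -0.37 and of OSapop to OSalive by 0.13. Leaving out top cells, other-leaning cells or 1 of an alike pair, and Lgr6 by Cd34, were chosen after seeing the data. No paired analysis was possible because no test was made and no label pairs the cells. Depth limits LOS and MOS most: 21 of 39 and 28 of 38 cells reached 20000 annotated counts. The CatVI plates are limited by their number of cells, 57 in all, and by the small share of their cells that passed.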

Other observations

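Cells under 2000 detected genes held few counts of the 6 genes. On P17f_pl3 and P17f_pl4 none of 67 and 57 cells had a count of any of them, and the median cell there had 0 and 16 annotated counts. Of 49 OSapop cells under this limit, 30 had an Lgr5 count, 12 an Lgr6 count and 8 a Cd34 count, and of 54 LOS cells 9 had a Cd34 count and 8 an Lgr5 count.

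The cell whose labels name different stages had 13 counts of Lgr5 (1243 CPM), 3 of Cd200 (286.9 CPM) and 0 of Cd34, Lgr6, Lrig1 and Plet1, among 10456 annotated counts.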
